A study of Mus musculus with 8 samples.

Results

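The 10 genes described here are commonly used to mark tumour-initiating or stem-like cells: Cd44, Cd24a, Prom1, Kit, Abcg2, Nes, Bmi1, Sox2, Msi1 and Msi2. They were chosen by symbol from the 24537 genes of the raw count table, and each was followed in 8 mouse pancreatic tumours. RNA was sequenced from EpCAM-positive cells sorted by flow cytometry from enzymatically dissociated tumours, with 1 library per tumour. All mice were FVB/NJ, were 44 to 49 days old, and carried, among the alleles shared by both groups, Trp53f/f, Rosa26LSL-Luc and Pdx1-Cre, that is, floxed Trp53, an inducible luciferase and a Cre recombinase driven by the Pdx1 promoter. The groups differed at Lifr, the receptor of leukaemia inhibitory factor: the 4 tumours labelled KO were Lifr f/f, and the 4 labelled WT comprised 2 Lifr f/+ tumours (WT replicates 1 and 2) and 2 Lifr +/+ tumours (WT replicates 3 and 4). Pdx1 is expressed in the pancreatic epithelial lineage, so the design places recombination in that lineage and not in the cells around it, and Trp53 was floxed in the controls as well. Replicate numbers only name tumours and pair none of them.

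Tumour-initiating cells are the fraction of a tumour that can seed a new one on transplantation, and they are usually isolated by combinations of surface proteins, dye efflux or reporters of stem cell genes. In pancreatic ductal adenocarcinoma CD44, CD24 and CD133 (the product of Prom1) are used as surface markers together with EpCAM itself, while Nes, Msi1, Msi2, Bmi1 and Sox2 encode a filament protein, RNA-binding proteins, a chromatin repressor and a transcription factor of stem and progenitor cells. None of these genes is specific to tumour-initiating cells: CD44 and CD24 are also found on many epithelial cells and leukocytes, and KIT is a defining receptor of mast cells.

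The libraries held between 14938875 and 22698340 counts assigned to genes, and levels are given as CPM (counts per 1e+06 counts) after scaling by the trimmed mean of M-values (TMM). The sort antigen Epcam was at 419, 360.1, 406 and 499 CPM in KO replicates 1 to 4 and at 747, 801, 889.7 and 659.8 CPM in WT replicates 1 to 4. Epcam was lower in the KO group by a log2 fold change of -0.88 ± 0.13 (standard error, SE; edgeR adjusted p = 0.00519). Summed over 16 epithelial genes, the level was 3620 to 5201 CPM in KO and 6834 to 9163 CPM in WT, and 12 of the 16 fell, none rose, with a median log2 fold change of -0.74. Macrophage genes were abundant in both groups in spite of the sort, at 22513 to 29434 CPM in KO and 8553 to 15563 CPM in WT over 14 genes, of which 13 rose (median 1.19). All 10 pan-leukocyte genes rose as well (3969 to 4712 CPM in KO, 1787 to 2784 CPM in WT, median 0.85). The summed level of 12 acinar genes varied from 1788 to 39499 CPM among KO tumours and from 414 to 8271 CPM among WT tumours. Lifr was at 157, 205, 149.7 and 219.6 CPM in KO and at 126, 93.7, 71.8 and 99.5 CPM in WT, higher in the tumours labelled KO (log2 fold change 0.90 ± 0.19, edgeR adjusted p = 0.0121). A count over the whole transcript does not test the floxed part of the gene, so the labels KO and WT are used as given.

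Per transcript length, the 10 genes covered a wide range. In RPKM (CPM per kilobase of transcript) averaged over the 8 tumours, Cd24a (246) and Cd44 (197) were the most abundant, at percentiles 99.0 and 98.7 of all genes with any count, beside 292 for Epcam. Cd24a exceeded Cd44 in RPKM in 8 of 8 tumours, though by little in KO replicates 1 and 4 and WT replicate 1. Nes (38.9 RPKM) and Prom1 (38.3) came next and did not differ beyond their spread. Msi2 (11.9) and Bmi1 (11.4) followed, and their order depended on the group: Msi2 was at 9.05 ± 1.53 RPKM (SD, n = 4) and Bmi1 at 11.2 ± 1.20 in KO, against 14.8 ± 2.42 and 11.5 ± 1.51 in WT. Abcg2 (5.17) and Kit (4.55) lay near the middle of all genes, at percentiles 51.1 and 49.2. Msi1 was low at 1.54 RPKM and Sox2 was nearly absent at 0.0167 RPKM.

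Promoter windows, the 250 bases upstream of the transcript start used for counting, were available from RefSeq (GRCm38.p6) for 8 of the 10 genes. Cd24a, which was also lower in KO tumours on the TMM scale, and Msi1 had no window. The windows are shown for Cd44, Nes and Msi2, which were lower in KO tumours on the TMM scale, and for Bmi1, whose level did not separate the groups. Each is printed 5′ to 3′ on the gene's strand, with GGGCGG, the core of the GC box bound by Sp1-family factors, in capitals on either strand. The windows are chr2:102901666-102901915 (minus strand) for Cd44, chr3:87970843-87971092 (plus) for Nes, chr2:18676768-18677017 (plus) for Bmi1 and chr11:88718230-88718479 (minus) for Msi2.
Cd44: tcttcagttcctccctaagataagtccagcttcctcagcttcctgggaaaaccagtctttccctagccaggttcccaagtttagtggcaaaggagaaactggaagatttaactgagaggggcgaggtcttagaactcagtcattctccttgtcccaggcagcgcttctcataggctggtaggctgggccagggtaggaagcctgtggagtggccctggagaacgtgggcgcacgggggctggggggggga
Nes: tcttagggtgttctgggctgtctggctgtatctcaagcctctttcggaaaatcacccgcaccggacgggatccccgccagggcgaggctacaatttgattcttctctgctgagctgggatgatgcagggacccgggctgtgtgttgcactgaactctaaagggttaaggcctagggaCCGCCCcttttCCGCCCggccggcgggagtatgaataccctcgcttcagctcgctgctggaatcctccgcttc
Msi2: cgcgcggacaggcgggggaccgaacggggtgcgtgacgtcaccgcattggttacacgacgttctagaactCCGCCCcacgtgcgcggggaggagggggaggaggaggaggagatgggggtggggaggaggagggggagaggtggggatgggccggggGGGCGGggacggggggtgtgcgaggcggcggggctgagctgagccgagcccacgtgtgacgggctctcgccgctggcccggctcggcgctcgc
Bmi1: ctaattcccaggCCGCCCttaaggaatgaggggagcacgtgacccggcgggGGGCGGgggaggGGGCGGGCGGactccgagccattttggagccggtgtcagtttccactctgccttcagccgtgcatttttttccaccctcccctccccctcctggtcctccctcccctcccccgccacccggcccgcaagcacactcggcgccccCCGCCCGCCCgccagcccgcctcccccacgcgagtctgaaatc
GGGCGG occurred in 7 of the 8 windows, against 32.7% of 32851 mouse promoter windows of that length, and Cd44 was the gene without it. The Bmi1 window had 6 such matches and those of Nes and Msi2 had 2 each, so the motif was present both in genes that were lower and in one that was not. The E-box CACGTG was found in Bmi1 (1 match) and Msi2 (2 matches), against 6.02% of all windows. TTCNNNGAA, the consensus of STAT factors, which act downstream of LIFR, was found in 0 of the 8 windows, against 7.02% of all. At that share, 0 matches in 8 windows of 250 bases says little, and binding of STAT factors was not tested. G+C content ranged from 50.0% in Abcg2 to 74.8% in Msi2, against a median of 52.4%.

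Between the groups, 4 of the 9 members that could be tested were lower in KO than in WT tumours on the TMM scale: Cd44, Cd24a, Nes and Msi2, by 1.51- to 1.74-fold. None of the 4 was lower once each library was scaled to its Epcam count, as described below. No member was higher on the TMM scale (0 also at an unadjusted p under 0.05, and 0 by DESeq2), and Prom1, Kit, Abcg2, Bmi1 and Msi1 did not pass the test. Of all 14728 genes tested, 21.8% were called, 10.8% lower and 11.1% higher, at an edgeR adjusted p under 0.05. The tested members had a median log2 fold change of -0.62, and all genes 0.011. The groups did not overlap in CPM for 5 members (Cd44, Cd24a, Nes, Msi1 and Msi2), as for 25.5% of all genes. With the mean acinar level as a covariate only Cd24a kept its call (-0.72), while the log2 fold change was -0.37 for Cd44, -0.53 for Nes and -0.72 for Msi2. With the mean macrophage level, whose groups do not overlap, no member kept its call (3 at an unadjusted p under 0.05 in edgeR), and the values were -1.10 for Cd44, -0.070 for Cd24a, -1.09 for Nes and -0.23 for Msi2. Since these are bulk samples, fewer cells of a type and less RNA per cell cannot be told apart.

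**Figure D1:**
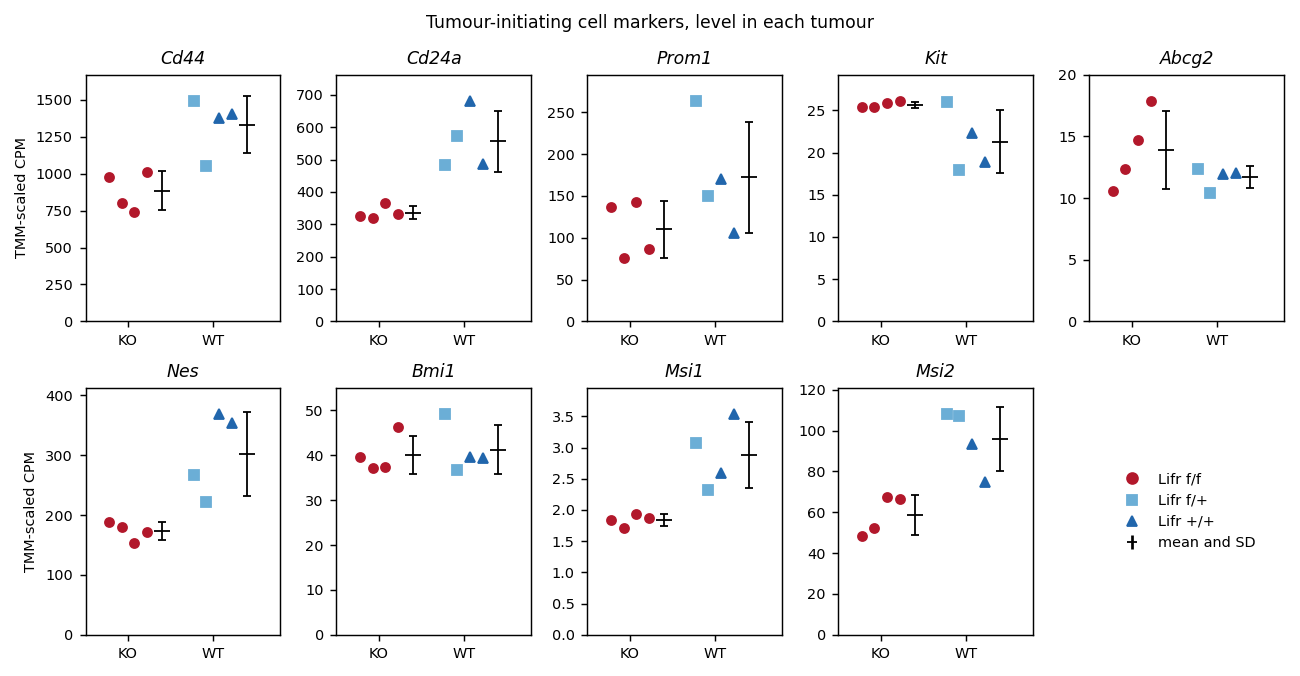
Level of the 9 tested members in each tumour in TMM-scaled CPM (vertical axes start at 0), with the mean and SD of 4 tumours beside each group and the Lifr genotype shown by symbol. The KO points of Cd44, Cd24a, Nes, Msi1 and Msi2 all lie below the WT points on this scale, a separation that is not seen relative to Epcam, whereas those of Prom1, Kit, Abcg2 and Bmi1 overlap them.

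Among the surface markers, Cd24a, a small glycosylphosphatidylinositol-anchored mucin-like protein (chr10:43579169-43584265, mm10), was at 325, 319, 366 and 333 CPM in KO replicates 1 to 4. In WT replicates 1 to 4 it was at 483, 572, 681 and 487 CPM. Every KO tumour lay below every WT tumour, and the KO values spanned a narrow range. Cd24a averaged 336 ± 21.0 CPM in KO and 556 ± 92.9 CPM in WT (SD, n = 4), and the log2 fold change was -0.73 ± 0.13 (95% interval -1.02 to -0.44, edgeR adjusted p = 0.00732). The call held in each of the 8 fits that left out 1 tumour, with edgeR adjusted p between 0.0075 and 0.0277.

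Cd44, the hyaluronan receptor (chr2:102811142-102901665), was at 979.7, 798, 743 and 1013 CPM in KO and at 1491, 1051, 1375 and 1403 CPM in WT. The groups were separated only narrowly, by KO replicate 4 and WT replicate 2. The mean was 884 ± 133 CPM in KO and 1330.2 ± 192 CPM in WT (SD, n = 4), and the log2 fold change was -0.59 ± 0.15 (95% interval -0.94 to -0.24, edgeR adjusted p = 0.0277). This call was lost on leaving out any of 5 tumours: the edgeR adjusted p was 0.0861 without KO replicate 2, 0.0665 without KO replicate 3, 0.0708 without WT replicate 1, 0.0671 without WT replicate 3 and 0.0553 without WT replicate 4. Its log2 fold change stayed between -0.69 and -0.51 over the 8 fits that left out 1 tumour, and the call was also lost against the f/+ or the +/+ controls alone.

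Prom1, the pentaspan membrane protein CD133 of apical protrusions (chr5:43993622-44101736), had the largest SD relative to its mean among the 9 tested members in both groups. It was at 137, 76.0, 142 and 86.5 CPM in KO and at 263, 149.7, 170.1 and 106 CPM in WT. WT replicate 1 was the highest, and WT replicate 4 lay among the KO tumours. The log2 fold change was -0.64 ± 0.30 (95% interval -1.33 to 0.043, edgeR adjusted p = 0.161), an interval that includes both no difference and one as large as that of Cd24a. Without WT replicate 1 the value was -0.36 (edgeR adjusted p = 0.384). Transcripts on the same strand (Gm42716) and antisense to it (Gm16401) are annotated within the span of Prom1. Whether they share its counted exons was not examined, so any part of their reads in the Prom1 counts is not known.

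Genes around the surface markers moved in both directions. Of 16 genes of hyaluronan synthesis and breakdown, CD44 splicing, cleavage and partners, 3 rose, 5 fell and 8 did not pass the test (median -0.12). Lyve1, another hyaluronan receptor, which tissue macrophages also express, rose from 91.0 ± 53.5 to 375 ± 47.6 CPM (means ± SD of 4 tumours; log2 fold change 2.04 ± 0.41, edgeR adjusted p = 0.0110). Esrp1, the epithelial splicing regulator of Cd44 exons, fell from 115 ± 22.0 to 60.4 ± 6.31 CPM (-0.93 ± 0.15, edgeR adjusted p = 0.00569). Ezr, which links CD44 to the actin cortex, fell from 728 ± 152 to 408 ± 55.6 CPM (-0.84 ± 0.17, edgeR adjusted p = 0.0106). The hyaluronan synthases Has1, Has2 and Has3 did not pass the test. Of 10 apical and ductal genes, where Prom1 protein resides, 7 fell and none rose (median -0.82): Aqp1, a water channel, by -1.22, Car2, a carbonic anhydrase, by -1.25 and Slc4a4, a bicarbonate transporter, by -1.14 on the log2 scale.

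Kit, the receptor of stem cell factor (chr5:75574987-75656721), was at 25.4, 25.3, 25.8 and 26.1 CPM in KO and at 26.0, 17.9, 22.3 and 18.9 CPM in WT. The 4 KO tumours were nearly identical, and WT replicate 1 lay within their range while the other WT tumours were lower. The mean was 25.7 ± 0.349 CPM in KO and 21.3 ± 3.68 CPM in WT (SD, n = 4), and the log2 fold change was 0.27 ± 0.12 (95% interval -0.0071 to 0.54, edgeR adjusted p = 0.147). Without WT replicate 1 the value was 0.38 and passed the test (edgeR adjusted p = 0.0421). Of the 10 mast cell genes, 5 had too few counts to be tested: Fcer1a had 2 counts in all 8 libraries together, Ms4a2 17, Cma1 33, Tpsb2 36 and Cpa3 57. Of the other 5, Il1rl1 rose (1.24 ± 0.34, edgeR adjusted p = 0.0338). Tpsab1 (233 counts, log2 fold change -2.36), Mcpt4 (258 counts, -1.35), Hdc (810 counts, 0.050) and Gata2 (76 counts, -0.32) did not pass the test. The summed level of the 10 was 21.4 to 48.1 CPM in KO and 17.0 to 26.4 CPM in WT. Il1rl1 had the largest mean of the 10 in both groups, at 21.2 ± 8.87 CPM in KO and 8.93 ± 3.04 CPM in WT (SD, n = 4). The sum therefore leans on this gene, while Tpsab1 and Mcpt4 had negative values. The part of mast cells in the Kit values was not tested.

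Among 12 related receptors, ligands and the KIT target Mitf, 3 rose, 1 fell and 8 did not pass the test (median 0.33). Flt3l, the ligand of FLT3, rose from 2.95 ± 0.413 to 7.19 ± 1.28 CPM (1.26 ± 0.19, edgeR adjusted p = 0.00478). Csf1r, the macrophage colony-stimulating factor receptor and itself one of the 14 macrophage markers, rose by 1.21, and Il34, its epithelial ligand, fell by 0.66 on the log2 scale. Kitl, the ligand of KIT, was at 36.0 ± 5.68 CPM in KO and 39.7 ± 12.3 CPM in WT (SD, n = 4 each) and did not pass the test.

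Abcg2, the efflux pump that excludes Hoechst dye from side-population cells (chr6:58596672-58692451), was at 10.6, 12.3, 14.7 and 17.9 CPM in KO and at 12.4, 10.4, 11.9 and 12.1 CPM in WT. KO replicates 3 and 4 exceeded all WT tumours, and KO replicate 1 lay among them. The log2 fold change was 0.25 ± 0.17 (95% interval -0.13 to 0.63, edgeR adjusted p = 0.324). Without KO replicate 4, the highest, it was 0.087 (edgeR adjusted p = 0.688). None of 11 other efflux transporters tested passed the threshold in edgeR (3 at an unadjusted p under 0.05, 2 by DESeq2), and their median was -0.096. The closest to it were Abcb1a (-0.84, edgeR adjusted p = 0.0661) and Abcc3 (-0.55, edgeR adjusted p = 0.0796).

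Nes, the intermediate filament protein nestin of progenitor and exocrine precursor cells (chr3:87971093-87980451), showed the largest log2 difference among the members on the TMM scale. It was at 188, 179.7, 154 and 172 CPM in KO and at 267, 221, 368 and 354 CPM in WT. All KO tumours were below all WT tumours, and within WT the +/+ tumours were above the f/+ tumours. Nes averaged 173 ± 14.8 CPM in KO and 303 ± 70.2 CPM in WT (SD, n = 4), and the log2 fold change was -0.80 ± 0.16 (95% interval -1.18 to -0.43, edgeR adjusted p = 0.0118). The call held in all 8 fits that left out 1 tumour (edgeR adjusted p 0.0094 to 0.036). Of 8 other intermediate filament genes tested, Lmna, a nuclear lamin, fell by 0.45 and 7 did not pass the test (median 0.12), and Vim was at 1021 ± 124 CPM in KO and 1062 ± 255 CPM in WT. Cell types that can carry Nes were also measured. No endothelial gene of 8 passed in edgeR (0 at an unadjusted p under 0.05, 0 by DESeq2; 32.9 to 42.0 CPM summed in KO, 29.0 to 53.5 CPM in WT), and no pericyte gene of 9 did (1 unadjusted, 0 by DESeq2; 82.4 to 167 CPM and 101 to 136 CPM). Among 10 fibroblast genes Dpt and Fap rose and 8 did not pass the test. The whole fibroblast list summed to 789 to 4287 CPM in KO and 420.1 to 1545 CPM in WT. Among 6 Schwann or neural genes tested, S100b and Erbb3 fell and 4 did not pass. The whole list of 10 summed to 59.7 to 67.0 CPM in KO and 82.1 to 142 CPM in WT. The part of these cell types in the Nes values was not tested.

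The Musashi proteins bind RNA and repress translation of targets such as Numb, an inhibitor of Notch signalling. Msi2 (chr11:88339382-88718229) was at 48.2, 52.2, 67.4 and 66.7 CPM in KO and at 108, 107, 93.4 and 74.6 CPM in WT. The groups did not overlap, and here the f/+ tumours were the highest. Msi2 averaged 58.6 ± 9.89 CPM in KO and 95.9 ± 15.7 CPM in WT (SD, n = 4), and the log2 fold change was -0.71 ± 0.15 (95% interval -1.06 to -0.36, edgeR adjusted p = 0.0141). Leaving out any 1 tumour kept the call (edgeR adjusted p at most 0.0476), but it was lost without KO replicate 1 and WT replicate 2, the tumours of each group with the most acinar RNA (-0.57, edgeR adjusted p = 0.0685).

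Msi1 (chr5:115429685-115454202) had a lower RPKM than Msi2 in each of the 8 tumours. It was at 1.83, 1.70, 1.94 and 1.87 CPM in KO and 3.07, 2.33, 2.60 and 3.53 CPM in WT. These rest on 25 to 40 counts per KO library and 50 to 60 per WT library. The groups did not overlap, but the log2 fold change of -0.62 ± 0.19 (95% interval -1.06 to -0.18) fell just short of the threshold (edgeR adjusted p = 0.0514). It passed in 7 of 22 alternative fits, among them DESeq2 (adjusted p = 0.0403), edgeR with relative-log-expression size factors (adjusted p = 0.0495) and edgeR without WT replicate 2 (adjusted p = 0.0471). Antisense transcripts are annotated over Msi1 and over Msi2, and Msi2 also holds a processed pseudogene (Gm11510) on its own strand. Whether these share counted exons with Msi1 or Msi2 was not examined, and the strandedness of the libraries is not given. Any part of their reads in the Msi1 and Msi2 counts is therefore not known. The count ratio of Msi1 to Msi2 was 0.0319 ± 0.00456 in KO and 0.0313 ± 0.0111 in WT (SD, n = 4 each; exact two-sided permutation p = 0.771).

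Of 14 Numb and Notch pathway genes, 1 rose, 4 fell and 9 did not pass the test (median -0.46). Notch2 rose from 213 ± 34.7 to 323 ± 19.8 CPM (0.60 ± 0.12, edgeR adjusted p = 0.0106), while Notch4 fell by 1.27 and the Notch target Hes1 fell by 0.76 on the log2 scale. Numb itself was at 49.6 ± 2.23 CPM in KO and 50.4 ± 4.07 CPM in WT.

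Bmi1, a subunit of Polycomb repressive complex PRC1 that silences Cdkn2a (chr2:18677018-18686629), was at 39.6, 37.1, 37.3 and 46.3 CPM in KO and at 49.1, 36.8, 39.5 and 39.5 CPM in WT. The groups overlapped throughout, with KO replicate 4 and WT replicate 1 the highest of each. The log2 fold change was -0.041 ± 0.11 with a 95% interval of -0.30 to 0.22 (edgeR adjusted p = 0.828), which leaves out a fall as large as that of Cd24a, Nes or Msi2 on this scale. Of 23 other Polycomb subunits and targets, 3 rose, 7 fell and 13 did not pass the test (median -0.16). Both target genes at the Ink4 locus fell: Cdkn2a from 115 ± 14.6 to 53.0 ± 12.3 CPM (-1.12 ± 0.17, edgeR adjusted p = 0.00547) and Cdkn2b by 1.02 on the log2 scale. Pcgf2, the Bmi1 paralogue, fell by 0.92 and Phc3, another PRC1 subunit, rose by 0.41.

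Sox2 (chr3:34649995-34652460), the pluripotency and foregut transcription factor, had 6 counts in all, 0, 0, 2 and 2 in KO and 1, 0, 1 and 0 in WT. It was not tested, and a count of 0 allows 3 counts, or 0.140 to 0.204 CPM in the 4 libraries without a Sox2 count (counting error only). The gene lies within Sox2ot, which had 7 counts in all. Nanog was similarly sparse, at 0 counts in KO. Among 11 of 19 other Sox and pluripotency genes with enough counts, 5 fell, none rose and 6 did not pass the test (median -0.53). Sox9, the ductal progenitor factor, fell from 106 ± 1.85 to 64.2 ± 8.44 CPM (-0.73 ± 0.095, edgeR adjusted p = 0.0044), Sox11 by 1.41 and Sox13 by 0.81 on the log2 scale.

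A wider list of 23 other tumour-initiating markers gave 6 that fell, none that rose and 15 that did not pass the test among 21 tested (median -0.46). Beside Sox9, Lrig1, a feedback inhibitor of ERBB receptors, fell from 71.2 ± 10.1 to 42.3 ± 6.31 CPM (-0.75 ± 0.14, edgeR adjusted p = 0.00817). Cd9, a tetraspanin, fell from 402 ± 122 to 199 ± 30.8 CPM (-1.01 ± 0.21, edgeR adjusted p = 0.0117). Of this list, 6 genes also stand in another list, so the lists are not independent. The falls given here for related genes are on the TMM scale. Scaling to Epcam raised all genes, to a median of 0.88, and on that scale the list medians were 0.43 for this list, 0.35 for the Sox and pluripotency genes, 0.044 for the apical and ductal genes and 0.15 for the epithelial genes, positive but below that of all genes. Among the Sox genes, Sox17 (-1.21, edgeR adjusted p = 0.0187) and Sox11 (-0.56, edgeR adjusted p = 0.0349) were lower relative to Epcam as well, whereas Sox9 was at 0.16 and Cdkn2a at -0.25 and neither passed.

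**Figure D2:**
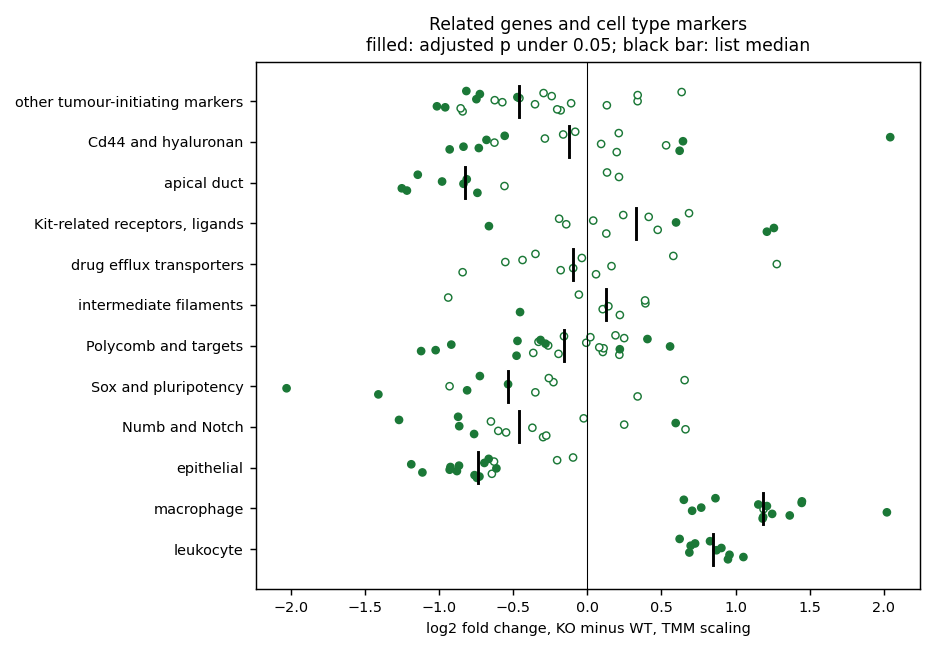
Log2 fold change, KO minus WT on the TMM scale, of each tested gene in lists related to the markers and in 3 cell type lists; filled points passed an edgeR adjusted p of 0.05 and black bars are list medians. The epithelial (median -0.74) and apical duct (-0.82) lists lie to the left (0.15 and 0.044 with Epcam scaling, where the median of all genes is 0.88), and the macrophage (1.19) and leukocyte (0.85) lists lie to the right.

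Relative to Epcam the picture changed. With each library scaled to its Epcam count, no member was called lower in KO (edgeR, 0 at an unadjusted p under 0.05), against 0.631% of all genes. Called higher were 3 members: Kit, Abcg2 and Bmi1. On this scale 75.2% of all genes were called higher and the median log2 fold change over all genes was 0.88, against 0.25 for the members, and Epcam itself was lower in KO. The share of members higher, 3 of 9, is below that background.

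Kit was at 6.08, 7.04, 6.36 and 5.23 counts per 100 Epcam counts in KO and at 3.48, 2.24, 2.51 and 2.86 in WT, without overlap (log2 fold change 1.15 ± 0.18, edgeR adjusted p = 0.000376). Abcg2 was at 2.53, 3.42, 3.63 and 3.58 in KO and at 1.66, 1.30, 1.34 and 1.83 in WT (1.10 ± 0.20, edgeR adjusted p = 0.000654). Bmi1 was at 9.46, 10.3, 9.20 and 9.29 in KO and at 6.57, 4.60, 4.44 and 5.99 in WT (0.82 ± 0.16, edgeR adjusted p = 0.000894). These 3 were the members with no overlap between groups in this ratio, as for 65.2% of all genes.

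The other 6 tested members did not pass relative to Epcam. Cd24a was at 77.7, 88.7, 90.4 and 66.7 counts per 100 Epcam counts in KO and at 64.7, 71.4, 76.5 and 73.8 in WT, overlapping between groups (0.18, 95% interval -0.18 to 0.53). Cd44 was at 234, 222, 183 and 203 in KO and at 199.5, 131, 155 and 213 in WT (0.27, 95% interval -0.18 to 0.72). The intervals of Nes (-0.39 to 0.55), Msi2 (-0.18 to 0.52), Msi1 (-0.43 to 0.83) and Prom1 (-0.38 to 0.88) likewise included 0 and changes in both directions. The ratio of Cd44 to Cd24a counts, which needs no scaling, was 2.65 ± 0.481 in KO and 2.46 ± 0.619 in WT (SD, n = 4 each; exact two-sided permutation p = 0.629).

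**Figure D3:**
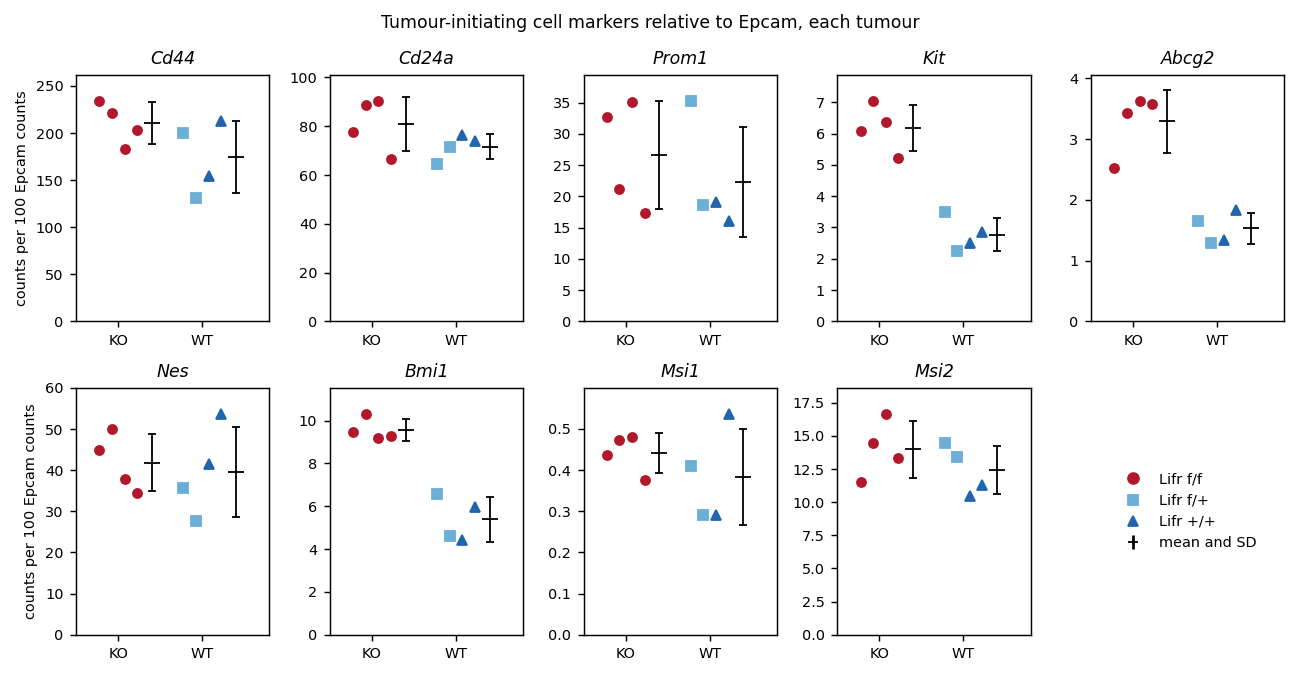
Counts of each tested member per 100 Epcam counts in the same library (vertical axes start at 0), by tumour, with mean and SD of 4 tumours. Kit, Abcg2 and Bmi1 are higher in every KO tumour than in any WT tumour (the groups do not overlap for 65.2% of all genes), and the other 6 members overlap between groups.

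**Figure D4:**
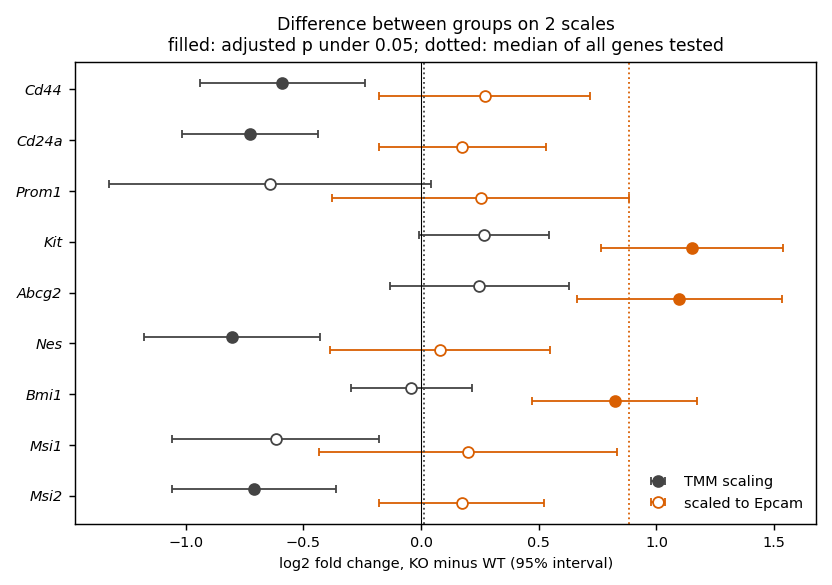
Log2 fold change, KO minus WT, with 95% interval for each tested member on the TMM scale (grey) and scaled to Epcam (orange); filled points passed an edgeR adjusted p of 0.05 and dotted lines mark the median of all genes, 0.011 and 0.88. Because Epcam was lower in KO, scaling to it moves genes as a whole to the right, every member among them. The members lower on the TMM scale come to lie near 0, below the median of all genes with Epcam scaling.

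The WT label joins 2 genotypes, and no member differed between f/+ and +/+ tumours at an edgeR adjusted p under 0.05 (1 at an unadjusted p under 0.05; 1 of 15284 genes, 0.00654%, was called). That member was Nes, at 361 CPM in +/+, 244 CPM in f/+ and 173 CPM in f/f on average, with f/+ minus +/+ at -0.56 ± 0.14 (unadjusted p = 0.00389 and adjusted p = 0.864 in edgeR). Cd44 (1389, 1271 and 884 CPM) and Cd24a (584, 528 and 336 CPM) had the same order of means, whereas Prom1 (138, 207 and 110.5 CPM) and Msi2 (84.0, 108 and 58.6 CPM) were highest in f/+. Against f/+ alone, 3 members were called lower in f/f (Cd24a, Nes and Msi2), as 13.3% of all genes were called in either direction. Against +/+ alone, 2 were (Cd24a and Nes), with 6.79% of all genes called. With 2 tumours per control genotype, these fits say little of differences within the WT group.

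The genes whose pattern over the 8 tumours lay closest to each member were taken from 14016 genes, by the root mean square difference of centred log2 CPM. Bmi1 was closest to Cdk13 (0.043), Cd44 to Endod1 (0.047) and Cd24a to Limk2 (0.069), against medians of 0.30, 0.44 and 0.46 over all genes. Kit was closest to Arfgef2 (0.079), Msi2 to Casc4 (0.081), Abcg2 to Chtf18 (0.089), Nes to Fzd8 (0.11), Msi1 to Tmem198 (0.12) and Prom1 to Kcnh2 (0.18). Each value is the smallest of 14016 differences over 8 tumours, so it lies below the median by selection. Whether any of these pairs share more than that was not tested.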

How the data were processed

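RNA of EpCAM-positive tumour cells from 8 mice was sequenced, with 1 library per tumour, and groups were taken from the sample titles. The authors deposited raw counts for each gene and, in another file, FPKM. Per the file headers, the counts were made with analyzeRepeats.pl (HOMER) over exons of mm10 transcripts, condensed to 1 transcript per gene, with the strand option set to +. Per the submitters' processing notes, STAR 2.4.0k, edgeR 3.6.8, HOMER and FastQC 0.11.2 were used, in roles that are not given. The strandedness of the libraries and the normalization of the FPKM table are not given in the sources used here, and 3 members have another transcript in the FPKM table.

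The counts were tested with edgeR 4.0.16 (quasi-likelihood test, TMM, filterByExpr with a minimum count of 10 and a minimum total count of 15, Benjamini-Hochberg adjustment over all genes tested, threshold 0.05) in R 4.3.3. This left 14728 genes and 9 of the 10 members. A fit with each library scaled to its Epcam count and a fit with 3 Lifr genotypes (15284 genes) used the same test. Ratios of 2 members were compared by exact two-sided permutation, whose smallest p is 0.0286. Alternatives used DESeq2 1.42.0, limma 3.58.1 on log2(FPKM + 1), other scalings, covariates and fewer tumours. The code was tested on simulated data. No libraries were identical; the smallest chi-square per degree of freedom between any pair was 32.4. Nothing says that tumours were handled in separate batches, and p-values set the difference between groups against the spread between these tumours.

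The members and gene lists were chosen with earlier results of these data known. The text names the members, Epcam, Lifr, the up to 3 genes of smallest p that passed the test in each list (up to 2 where none passed), and the nearest patterns; Has1, Has2, Has3, Kitl, Vim, Numb, Nanog, Cdkn2b, Sox17 and the mast cell markers beyond Il1rl1 were named after their values were seen. Promoter windows came from RefSeq. Another allele that both groups share is not reported here.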

Additional observations from a re-analysis of the deposited data

Results flagged for a closer look

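Prom1 relative to Epcam in WT replicate 1, an f/+ tumour, was 35.3 counts per 100 Epcam counts, far from the other WT tumours at 16.1 to 19.1. The gap to the nearest of them was 0.841 of the whole range of the group. Of 36 groups of 4 tumours examined in this way, chance alone marks about 1 in 20. In KO tumours Prom1 was at 32.7, 21.1, 35.1 and 17.4 counts per 100 Epcam counts, so WT replicate 1 was at the level of the highest KO tumours. Without this tumour the Prom1 log2 fold change relative to Epcam moved from 0.25 to 0.56 (edgeR adjusted p = 0.0653), and on the TMM scale from -0.64 to -0.36.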

How the results depend on the processing

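No paired analysis was possible because the replicate numbers follow the listing order and no label ties tumours of different groups together. Scaling libraries to 15 epithelial genes without Epcam moved the median of all genes to 0.85 on the log2 scale, with 99.1% of calls higher against 50.7%. Under it 0 members were lower in place of 4 and 3 were higher in place of 0 (Kit, Abcg2 and Bmi1). Of all 14728 genes, 10791 were called higher under it and 100 lower. Values under it were 0.23 for Cd44, 0.14 for Cd24a, 0.21 for Prom1, 0.030 for Nes, 0.79 for Bmi1, 0.17 for Msi1 and 0.15 for Msi2. Library totals alone moved that median to -0.16 (22.5% of calls higher), and the FPKM table to -0.13 (24.2%) or -0.16 (24.1%) with pseudocounts of 1 and 0.1. Members called lower numbered 2 with +/+ controls only (Cd44 and Msi2 lost), where 592 of 15065 genes were lower. With the acinar list as covariate 1 was lower (Cd24a kept, Msi2 still at -0.72), as were 1021 of 14728 genes. With the macrophage list as covariate 0 were lower. There Cd44 (-1.10), Nes (-1.09) and Msi1 (-1.22) had larger log2 differences and Cd24a (-0.070) and Msi2 (-0.23) smaller ones. In the last fit 0 of 14728 genes passed in edgeR (759 genes, 3 of them members, at an unadjusted p under 0.05); macrophage sums did not overlap between groups, so that covariate and the group cannot be told apart well. Cd44 also lost its call with f/+ controls only (edgeR adjusted p = 0.149). Leaving out each tumour gave 3 to 5 members lower and 0 to 1 higher (Kit, without WT replicate 1). Over all genes, from 837 of 14962 (without KO replicate 2) to 1592 of 14955 (without WT replicate 4) were lower in these fits. From 918 to 1649 were higher, in the same 2 fits. Bmi1 turned positive with +/+ controls only (0.021), with the acinar covariate (0.10) and without WT replicate 1 (0.055). Relative to Epcam, 3 members were higher and 0 lower in all 13 alternatives. Over all genes, from 9486 of 15065 (+/+ controls only) to 11570 of 14919 (without KO replicate 4) were called higher in those fits. The share of members higher was thus below that of all genes. Uncalled values changed sign for Nes and Prom1. Nes was at up to 0.26 on leaving out 1 tumour, -0.016 without KO replicate 2, -0.059 without WT replicate 2 and -0.18 with +/+ controls only. It was at -0.096 without the tumour of each group with most acinar RNA, an alternative chosen after seeing the data. Prom1 was at -0.022 with f/+ controls only. The log2 difference of the Cd44 to Cd24a ratio ranged from -0.0039 (without WT replicate 2) to 0.25 on leaving out tumours, and that of Msi1 to Msi2 from -0.080 (without WT replicate 2; -0.011 without KO replicate 1) to 0.30. The cause of these shifts was not tested. Sox2, at 6 counts, and Msi1, at 25 to 60 per library, are limited by depth.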

Other observations

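No islet gene of 8 passed in edgeR (3 at an unadjusted p under 0.05, 2 by DESeq2; 85.1 to 199 CPM summed in KO, 57.4 to 191 CPM in WT), nor any of 11 acinar genes (3 unadjusted, 1 by DESeq2; median 2.65), 7 B cell genes (2 unadjusted, 0 by DESeq2; 50.8 to 85.7 CPM and 39.4 to 65.9 CPM), 6 T and natural killer cell genes (0 unadjusted, 0 by DESeq2; 31.2 to 39.5 CPM and 19.4 to 39.6 CPM) or the 1 testable erythroid gene of 6 (0 unadjusted, 0 by DESeq2). Ccr2, a chemokine receptor of monocytes, rose most among the macrophage genes, from 169.9 ± 51.6 to 689.5 ± 145 CPM (means ± SD of 4 tumours; log2 fold change 2.02 ± 0.26, edgeR adjusted p = 0.0044). Krt7, a ductal keratin, fell most among the epithelial genes, from 1124 ± 218 to 493 ± 121 CPM (-1.19 ± 0.20, edgeR adjusted p = 0.00697).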
